A study of Mus musculus with 18 samples.

Results

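Liver transcripts of 6 core circadian clock genes were followed across the 6 groups of the study. Arntl, Clock and Npas2 encode the activators of the clock, Nr1d1 and Nr1d2 encode the repressive nuclear receptors REV-ERB alpha and REV-ERB beta, and Rora encodes the activating receptor ROR alpha. The 6 genes were taken by their symbols from the deposited expression table, which lists 19057 genes, and all 6 were among the 10204 genes that reached a mean of 1 RPKM over the libraries and entered the tests. The genes were selected on measured values, namely the fold changes of clock genes that had stood out between A10-FMT and HS livers in an earlier analysis of these data. The values of that comparison are therefore given as a description, and the p-values of the other comparisons measure the size of a difference against the spread between libraries without being independent evidence that the clock was the place to look. Comparisons that share the HS or A10-FMT libraries with it are not independent of the choice.

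The study sequenced liver mRNA of male ICR mice at 10 weeks of age, in 18 libraries that form 6 groups of 3. Con mice were the untreated controls. HS mice received a high-fat diet and streptozotocin (STZ), which damages the beta cells that make insulin. A10 mice received 10 mg/kg of alginate oligosaccharide (AOS), a breakdown product of seaweed alginate, without diet or STZ, and HS+A10 mice received diet, STZ and AOS. A10-FMT and Con-FMT mice received diet and STZ and then gut microbiota from AOS-treated donors or from control donors, and the donor material of each group had been pooled. HS, HS+A10, A10-FMT and Con-FMT thus share diet and STZ, while Con and A10 share the regular diet. The sources used here do not say whether the 3 libraries of a group came from 3 separate mice, so the p-values measure the spread between these libraries.

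In the clock, the protein of Arntl (BMAL1) pairs with CLOCK or NPAS2, binds E-boxes and switches on its own repressors of the Period and Cryptochrome families together with Nr1d1 and Nr1d2. REV-ERB and ROR proteins then compete for one DNA element, the RORE, at which REV-ERB represses and ROR activates Arntl, Clock, Npas2, Cry1 and Nfil3. In mouse liver the transcripts of Arntl and Npas2 reach their daily peak at another time of day than those of Nr1d1 and Nr1d2. The mice were kept under a regular light and dark cycle, but the hour at which livers were taken is not given in the sources used here. The levels below could therefore not be placed on a daily cycle. Whether all groups were taken at the same hour is not given either. In every comparison below, a difference in treatment and one in the hour of collection cannot be told apart. Rise, fall and effect below stand for differences between groups.

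Matches to DNA elements of this loop were looked for in the promoter windows of RefSeq (GRCm38.p6). Each window ran from 250 bases before to 50 bases after a transcription start. All 6 genes had a window, 9 windows in all. The windows of Arntl, Nr1d1 and Nr1d2 are shown because the receptors and their target lie on opposite sides of this loop. Capitals mark matches on either strand to the RORE, the receptor half-site AGGTCA, the E-box CACGTG, its variant CACGTT and the D-box TTATGTAA, with the sequence written 5′ to 3′ on the strand of the gene.
Arntl, chr7:113207261-113207560, plus strand: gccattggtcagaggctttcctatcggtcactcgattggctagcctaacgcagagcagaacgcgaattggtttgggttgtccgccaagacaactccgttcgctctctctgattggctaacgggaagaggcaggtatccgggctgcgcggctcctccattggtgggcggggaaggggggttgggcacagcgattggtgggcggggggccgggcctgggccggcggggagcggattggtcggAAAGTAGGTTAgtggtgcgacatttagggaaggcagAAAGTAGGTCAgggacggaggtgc
Nr1d1, chr11:98775328-98775627, minus strand: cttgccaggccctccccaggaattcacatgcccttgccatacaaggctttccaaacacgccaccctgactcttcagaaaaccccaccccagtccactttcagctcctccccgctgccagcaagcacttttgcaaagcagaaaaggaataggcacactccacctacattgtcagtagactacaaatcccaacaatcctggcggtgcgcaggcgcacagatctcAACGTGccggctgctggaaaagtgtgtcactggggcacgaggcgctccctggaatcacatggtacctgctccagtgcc
Nr1d2, chr14:18239057-18239356, minus strand: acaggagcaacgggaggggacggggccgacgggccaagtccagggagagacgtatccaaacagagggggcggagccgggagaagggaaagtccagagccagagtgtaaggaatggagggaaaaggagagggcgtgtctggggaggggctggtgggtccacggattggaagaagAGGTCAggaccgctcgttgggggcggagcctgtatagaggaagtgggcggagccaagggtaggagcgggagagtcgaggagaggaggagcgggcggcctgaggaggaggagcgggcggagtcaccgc
The Arntl window held the RORE at 2 places, starting 10 bases before and at base 27 after the start site, and the second of them contains the half-site. The RORE was searched as the letters in capitals there. Its last base but one was left free so as to cover the known pair of elements of Arntl. The match in Arntl was therefore fixed by the way the motif was written, and nothing is read from its rarity. This motif occurred in 20 of 32851 windows of this length (0.0609%). It had no match in the windows of Clock, Npas2, Nr1d1, Nr1d2 and Rora. The Nr1d1 window held the E-box variant at 1 place, a motif found in 4.68% of all windows, and the Nr1d2 window held the half-site at 1 place, a motif found in 16.3%. A Clock window, not shown, also held the half-site at 1 place, on the reverse strand. The E-box CACGTG, found in 7.15% of all windows, and the D-box, found in 0.938%, had no match in any window of the 6 genes. A match of letters is a description of the window and does not show that a protein binds there.

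The libraries had summed RPKM values between 692818 and 806937. The steps between the low values of 15 genes put their depths between 0.950 and 1.05 of the mean. Only genes whose steps lay within 0.12 of a common step in all libraries were used. A wide range could therefore not appear, and equal depth is not shown by it. The third Con library took a value between both other Con libraries at 95.5% of 858 genes, those at which the latter differed by more than 0.5 on the log2 scale, and the third A10 library did so for 94.1% of 577 genes, against 24.0% to 72.9% in the other 16 libraries. Its median position on the RPKM scale was 0.497 of the way from 1 Con library to the other, and 0.649 for A10, so the calls on Con and A10 were also made without these 2 libraries. Hepatocyte markers summed to between 39498 and 59521 RPKM in every library. The third Con-FMT library also held pancreatic acinar transcripts, summed over 10 markers to 19797 RPKM against at most 3.55 RPKM in the other 17 libraries, and adipocyte markers at 14.5 RPKM.

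Arntl, whose product is the obligatory partner in the activator pair, lies at chr7:113207465-113314126 on the plus strand of GRCm38. Its level was 10.1, 12.9 and 12.2 RPKM in the 3 Con libraries, 8.84, 8.86 and 13.4 RPKM in HS, and 11.2, 12.7 and 11.8 RPKM in A10. It was 0.70, 2.97 and 2.65 RPKM in HS+A10, 1.22, 3.11 and 0.91 RPKM in A10-FMT, and 4.92, 1.26 and 1.59 RPKM in Con-FMT. The highest of these 9 low libraries, at 4.92 RPKM, stood below the lowest of the 9 high ones, at 8.84 RPKM. Within the high groups the order from A10 to Con to HS and within the low groups the order from Con-FMT to HS+A10 to A10-FMT had overlapping libraries at every step.

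Npas2, which can take the place of CLOCK beside BMAL1, lies at chr1:39193731-39363236 on the plus strand. Its level was 2.90, 3.48 and 2.95 RPKM in Con, 1.85, 1.48 and 1.87 RPKM in HS, and 2.93, 3.61 and 3.40 RPKM in A10. It was 0.12, 0.53 and 0.39 RPKM in HS+A10, 0.03, 0.41 and 0.03 RPKM in A10-FMT, and 0.64, 0.05 and 0.05 RPKM in Con-FMT. Npas2 thus had a middle step that Arntl lacked, since the 3 HS libraries lay below all Con and A10 libraries and above all libraries of the 3 low groups. Several of the low values are only a few times the 0.01 RPKM to which the table is rounded, so folds of Npas2 against these groups are imprecise.

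Clock, the usual partner of BMAL1, lies at chr5:76209868-76304792 on the minus strand. Its level was 4.94, 6 and 5.68 RPKM in Con, 6.14, 6.91 and 6.87 RPKM in HS, and 5.47, 5.88 and 6.29 RPKM in A10. It was 3.49, 4.97 and 4.96 RPKM in HS+A10, 2.69, 3.39 and 2.37 RPKM in A10-FMT, and 3.90, 3.32 and 3.09 RPKM in Con-FMT. The same groups were high and low as for Arntl, but the means spanned only 2.82 to 6.64 RPKM, and each step in the order from HS to A10, Con, HS+A10, Con-FMT and A10-FMT had overlapping libraries. Within groups, the first HS+A10 library had the lowest and the second A10-FMT and first Con-FMT libraries had the highest level of all 3 activators, whereas in HS the second library was highest in Clock and lowest in Npas2, and in A10 the second library was highest in Arntl and Npas2 but the third in Clock.

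Nr1d1, the gene of REV-ERB alpha, lies at chr11:98767932-98775333 on the minus strand. Its level was 1.22, 3.68 and 2.72 RPKM in Con, 17.2, 20.1 and 27.0 RPKM in HS, and 30.7, 10.0 and 16.9 RPKM in A10. It was 49.7, 58.5 and 50.7 RPKM in HS+A10, 43.7, 33.3 and 32.5 RPKM in A10-FMT, and 24.7, 56.9 and 46.4 RPKM in Con-FMT. The Con libraries were far below all others, HS and A10 overlapped at a middle level, and the first Con-FMT library fell inside the HS range. Nr1d1 shares 263 of its exonic bases (8.55%) with exons of Thra on the opposite strand, and whether the counting used strand is not given in the sources used here. Thra, a thyroid hormone receptor gene, lay between 3.27 and 6.33 RPKM in all 18 libraries.

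Nr1d2, the gene of REV-ERB beta, lies at chr14:18204054-18239127 on the minus strand and showed the same 3 steps with tighter libraries. Its level was 2.05, 3.03 and 2.49 RPKM in Con, 8.88, 8.41 and 8.18 RPKM in HS, and 10.4, 6.39 and 8.16 RPKM in A10. It was 23.8, 20.1 and 20.1 RPKM in HS+A10, 22.4, 16.0 and 19.0 RPKM in A10-FMT, and 14.6, 20.2 and 23.4 RPKM in Con-FMT. Here the 3 steps did not overlap at all, with Con at most 3.03 RPKM, HS and A10 between 6.39 and 10.4 RPKM and the other 9 libraries at 14.6 RPKM or more.

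Rora, the gene of ROR alpha, lies at chr9:68653786-69388246 on the plus strand and varied little. Its level was 4.99, 6.47 and 5.37 RPKM in Con, 6.33, 5.99 and 7.70 RPKM in HS, and 6.91, 6.54 and 7.42 RPKM in A10. It was 5.37, 5.28 and 5.61 RPKM in HS+A10, 5.66, 4.75 and 4.53 RPKM in A10-FMT, and 6.63, 5.15 and 5.44 RPKM in Con-FMT. Group means ran from 4.98 RPKM in A10-FMT to 6.96 RPKM in A10, a range of 0.42 on the log2(RPKM + 1) scale, against 3.99 for Nr1d1, 2.67 for Nr1d2, 2.31 for Arntl, 1.91 for Npas2 and 1.01 for Clock.

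**Figure D1:**
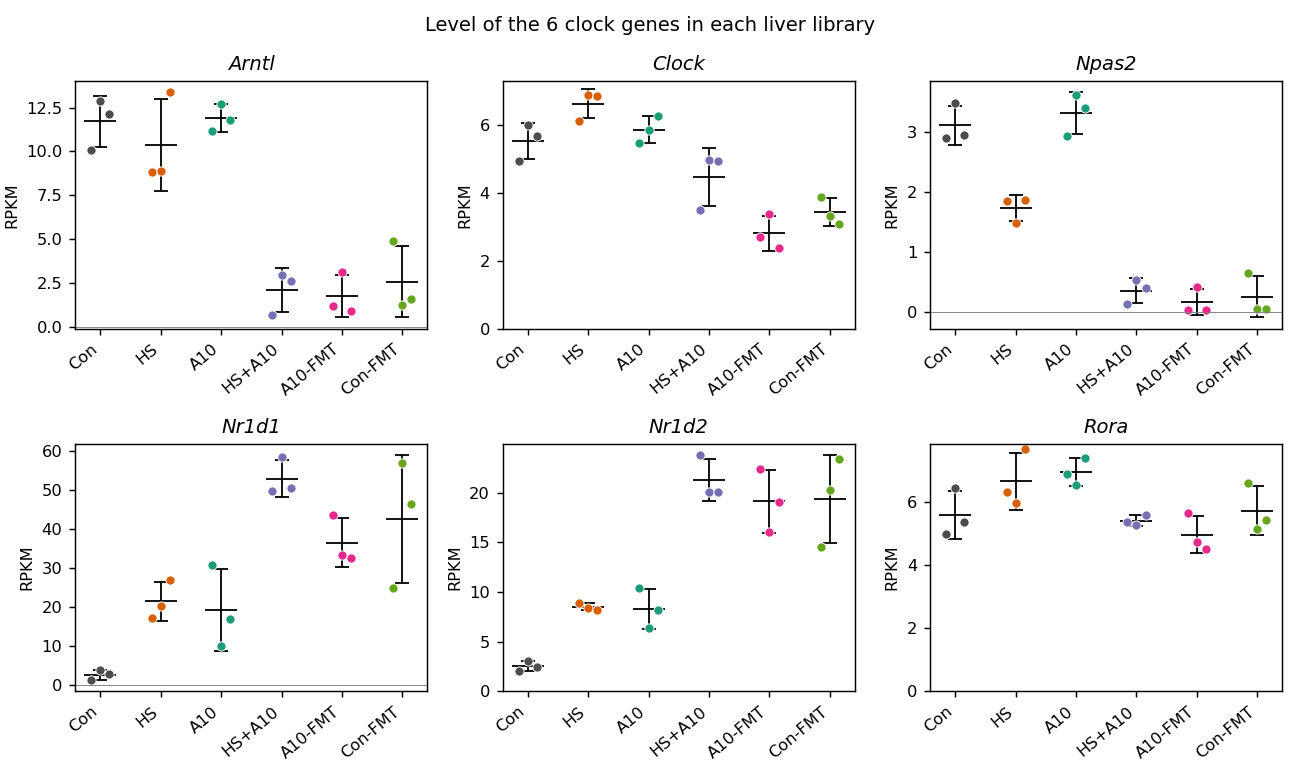
Level of each of the 6 genes in RPKM (y axis, from 0) in the 6 groups (x axis). Points are single libraries, the dash is the mean and the bar the SD of 3 libraries. Arntl, Npas2 and Clock are low and Nr1d1 and Nr1d2 high in HS+A10, A10-FMT and Con-FMT, and Con has the lowest Nr1d1 (at most 3.68 RPKM) and Nr1d2 (at most 3.03 RPKM).

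The first comparison sets HS livers, with diet and STZ, against Con livers. Nr1d1 and Nr1d2 were higher and Npas2 was lower in HS, while Arntl, Clock and Rora did not pass the test. Nr1d1 averaged 21.4 ± 5.02 RPKM in HS and 2.54 ± 1.24 RPKM in Con (SD, n = 3 each), a mean 8.43-fold higher and a log2 change of 2.71 ± 0.36 (SE, limma adjusted p = 3.73e-04). Nr1d2 was 3.36-fold higher, with a log2 change of 1.44 ± 0.17 (limma adjusted p = 1.77e-04). Neither receptor gene had a HS library that reached down to the Con range, and the libraries of these groups did not overlap for 36.8% of all tested genes. Npas2 fell by 0.59 ± 0.17 on the log2 scale (limma adjusted p = 0.031), a call that was lost under a pseudocount of 0.1 (adjusted p = 0.345), without HS replicate 2, HS replicate 3 or any single Con library (0.0533 to 0.0996), without a filter on low genes (0.0573), in a fit on 12 libraries (0.062) and without the third Con and A10 libraries together (0.0888). The log2 change was -0.18 ± 0.36 for Arntl, 0.23 ± 0.12 for Clock and 0.22 ± 0.11 for Rora (limma adjusted p = 0.755, 0.195 and 0.171). The 3 calls among 6 genes compare with 17.7% of all tested genes called in this comparison, and the median of all genes was itself shifted by 0.14, so that after scaling each library to the same median the calls over all genes went from 1618 higher and 191 lower to 398 higher and 486 lower. Nr1d1 and Nr1d2 stayed called in HS under every alternative that was run, both scalings included.

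AOS alone, in mice on the regular diet, gave the second comparison. Nr1d1 and Nr1d2 were 2 of the 7 genes called among the 10204 tested (0.0686%). Nr1d1 averaged 19.2 ± 10.5 RPKM in A10, 7.56-fold above Con, with a log2 change of 2.45 ± 0.36 (limma adjusted p = 0.016). Nr1d2 averaged 8.32 ± 2.01 RPKM, 3.30-fold above Con, with a log2 change of 1.39 ± 0.17 (limma adjusted p = 0.0076). The 3 A10 libraries lay above the 3 Con libraries for both genes, and the groups did not overlap for 24.8% of all tested genes. The other 5 called genes, named here after their values were seen, were Cyp3a59, Pck1 and Lpin2, which were higher, and Cyp21a1 and Saa2, which were lower. The 3 activator genes had log2 changes of 0.02 ± 0.36 for Arntl, 0.07 ± 0.12 for Clock and 0.07 ± 0.17 for Npas2, with 95% intervals of -0.75 to 0.80, -0.18 to 0.33 and -0.30 to 0.44, and Rora one of 0.27 ± 0.11 (limma adjusted p = 0.299). Both receptor calls rest on the libraries whose independence is in doubt. Without the third Con and the third A10 library together the log2 changes were 2.54 for Nr1d1 and 1.39 for Nr1d2, but the adjusted p was 0.272 for both and 0 of the 6 genes were called, and neither call was kept without Con replicate 1, Con replicate 3 or A10 replicate 3 alone (adjusted p = 0.0633 to 0.152), nor was that of Nr1d1 in a fit on the groups compared (0.0755).

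In HS+A10, with AOS on top of diet and STZ, the activators were lower and the REV-ERB genes higher than in HS. Arntl averaged 2.11 ± 1.23 RPKM in HS+A10 and 10.4 ± 2.61 RPKM in HS (SD, n = 3 each), a log2 change of -1.94 ± 0.36 (limma adjusted p = 0.00773). Npas2 changed by -1.03 ± 0.17 and Clock by -0.49 ± 0.12 (limma adjusted p = 0.00418 and 0.0253). Nr1d2 changed by 1.23 ± 0.17 and Nr1d1 by 1.29 ± 0.36 (limma adjusted p = 0.00309 and 0.0428), and Rora, at -0.25 ± 0.11, did not pass. These 5 calls of 6 compare with 7.32% of all tested genes. The HS libraries are shared with the comparison that prompted the choice of genes, so this count is not independent of it. The calls of Arntl, Npas2 and Nr1d2 were kept when any single library was left out, though that of Arntl was lost in a fit on the groups compared (adjusted p = 0.0687). The call of Nr1d1 was lost with the replicate block (adjusted p = 0.0573) and without any single HS or HS+A10 library (0.0731 to 0.122), Con replicate 3, A10 replicate 3 or A10-FMT replicate 2 (0.0532 to 0.0581), and that of Clock without HS replicate 2, HS replicate 3 or HS+A10 replicate 1 (0.0886 to 0.121). Both calls were also lost without the third Con and A10 libraries together (0.0798 for Nr1d1 and 0.053 for Clock) and without a filter on low genes (0.0935 and 0.0528), that of Nr1d1 with a pseudocount of 0.1 (0.0592) and that of Clock in a fit on the groups compared (0.108).

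The effect of AOS under diet and STZ was set against its effect on the regular diet by an interaction term. For Arntl the AOS effect was -1.94 under diet and STZ and 0.02 on the regular diet, a difference of -1.97 ± 0.52. For Npas2 the difference was -1.10 ± 0.25, for Clock -0.57 ± 0.17, for Rora -0.52 ± 0.15 and for Nr1d1 -1.16 ± 0.50, and for Nr1d2 it was -0.16 ± 0.25 with a 95% interval of -0.68 to 0.36. No member passed in limma over all genes (adjusted p = 0.118 to 0.828), while 5 of the 6 had an unadjusted p under 0.05, as had 1320 of all 10204 tested genes. Without the third Con and A10 libraries the adjusted p of the 6 genes was 0.437 to 0.896. Over all genes 1 was called (0.0098%), and this was Dbp, a transcription factor gene driven by BMAL1 through E-boxes. Its level averaged 65.8 RPKM in HS+A10, 1.73 RPKM in HS, 1.85 RPKM in A10 and 0.64 RPKM in Con. In the recipient groups, which are outside this term, Dbp averaged 77.9 RPKM in A10-FMT and 53.4 RPKM in Con-FMT.

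HS+A10 also differed from A10, the comparison that sets diet and STZ against the regular diet in AOS-treated mice. Arntl fell by 2.15 ± 0.36 and Npas2 by 1.69 ± 0.17 on the log2 scale (limma adjusted p = 0.00101 and 2.66e-05). Nr1d1 rose by 1.55 ± 0.36 and Nr1d2 by 1.28 ± 0.17 (limma adjusted p = 0.00671 and 2.00e-04). Clock at -0.34 ± 0.12 and Rora at -0.31 ± 0.11 lay just outside the threshold (limma adjusted p = 0.0573 and 0.0553) and were inside it under median scaling (0.0256 and 0.0131), under quantile normalization (0.0234 and 0.0111) and without either of 2 single libraries for Clock (A10-FMT replicate 2 or 3) or any of 4 for Rora (Con replicate 2, HS replicate 3, A10-FMT replicate 1 or Con-FMT replicate 1). Against the 4 calls of 6 stand 20.9% of all tested genes, and the 4 calls were kept without the third Con and A10 libraries.

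The recipients of gut microbiota from AOS-treated donors were set against HS next. In A10-FMT, the comparison that prompted the choice of genes and for which no test is drawn, Arntl averaged 1.75 ± 1.19 RPKM against 10.4 ± 2.61 RPKM in HS, 5.93-fold lower. Clock averaged 2.82 ± 0.52 RPKM against 6.64 ± 0.43 RPKM, 2.36-fold lower, and Npas2 0.16 ± 0.22 RPKM against 1.73 ± 0.22 RPKM. Nr1d2 averaged 19.2 ± 3.18 RPKM against 8.49 ± 0.36 RPKM, 2.26-fold higher, and Nr1d1 36.5 ± 6.24 RPKM against 21.4 ± 5.02 RPKM, 1.71-fold higher. Rora averaged 4.98 ± 0.60 RPKM against 6.67 ± 0.91 RPKM. All 6 genes had no overlap between the 3 A10-FMT and the 3 HS libraries, as had 37.4% of all tested genes, and 5 of them were called against a background of 23.1%, from which nothing is read.

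Microbiota from control donors gave differences from HS in the same directions, in a comparison that shares the HS libraries with the one above. Arntl averaged 2.59 ± 2.02 RPKM in Con-FMT against 10.4 ± 2.61 RPKM in HS, with a log2 change of -1.78 ± 0.36 (limma adjusted p = 0.00323). Clock changed by -0.79 ± 0.12 and Npas2 by -1.16 ± 0.17 (limma adjusted p = 4.76e-04 and 3.88e-04). Nr1d2 rose by 1.08 ± 0.17 (limma adjusted p = 6.59e-04), a 2.28-fold higher mean. Nr1d1 at 0.91 ± 0.36 and Rora at -0.19 ± 0.11 did not pass (limma adjusted p = 0.0774 and 0.227), though Nr1d1 passed under median scaling (0.0498) and without Con-FMT replicate 1 (0.0262) or A10 replicate 1 (0.0445). The 4 calls of 6 compare with 23.6% of all tested genes. Leaving out the third Con-FMT library, which held the pancreatic transcripts, kept all 4 calls.

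Set directly against each other, the recipients of the 2 kinds of microbiota did not differ in any of the 6 genes by more than the spread. The log2 differences of A10-FMT minus Con-FMT were -0.33 for Arntl with a 95% interval of -1.11 to 0.44, -0.22 for Clock (-0.48 to 0.03), -0.09 for Npas2 (-0.46 to 0.28), -0.15 for Nr1d1 (-0.91 to 0.61), -0.0034 for Nr1d2 (-0.37 to 0.37) and -0.17 for Rora (-0.40 to 0.06). In limma 0 of 6 were called and 0 had an unadjusted p under 0.05, whereas 18.8% of all tested genes were called between these 2 groups. The libraries of the 2 groups overlapped for all 6 genes, whereas they did not for 31.5% of all tested genes, and the widest intervals, those of Arntl and Nr1d1, still include differences of -1.11 and -0.91.

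Microbiota from AOS-treated donors and AOS given directly were compared in HS mice as A10-FMT against HS+A10. Clock was lower in A10-FMT, by -0.52 ± 0.12 on the log2 scale (limma adjusted p = 0.0147), 1 call of 6 against 11.7% of all tested genes. This call was lost in a fit on the groups compared (adjusted p = 0.0833), under quantile normalization (0.0619) and under median scaling (0.0601), which removes a shift of -0.12 in the median of all genes and lowers the share of all genes called to 5.4%, and without HS+A10 replicate 2, HS+A10 replicate 3 or A10-FMT replicate 3 (0.0586 to 0.0803). The other differences were -0.53 ± 0.36 for Nr1d1, -0.22 ± 0.17 for Npas2, -0.17 ± 0.36 for Arntl, -0.15 ± 0.17 for Nr1d2 and -0.11 ± 0.11 for Rora.

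Both recipient groups were also set against the healthy Con livers, whose libraries the 2 comparisons share. In A10-FMT and Con-FMT, respectively, Nr1d1 was 14.4-fold and 16.8-fold higher than in Con, with log2 changes of 3.46 ± 0.36 and 3.61 ± 0.36 (limma adjusted p = 5.50e-05 and 7.59e-06). Nr1d2 was 7.59-fold and 7.68-fold higher (limma adjusted p = 1.24e-06 and 4.04e-07). Arntl fell by 2.29 and 1.96, Npas2 by 1.84 and 1.75 and Clock by 0.78 and 0.56 on the log2 scale (limma adjusted p at most 0.00322). Rora differed by -0.14 and 0.03 and was not called. Each comparison called 5 of the 6 genes, against 14.3% and 25.8% of all tested genes, and these calls were kept without the third Con and A10 libraries. The A10-FMT libraries also belong to the comparison that prompted the choice of genes, so the calls in A10-FMT are not independent of it. HS+A10, with the same diet and STZ, stood 20.9-fold above Con in Nr1d1 and 8.45-fold in Nr1d2, and 4 of the 6 genes were called there against 31.5% of all tested genes.

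**Figure D2:**
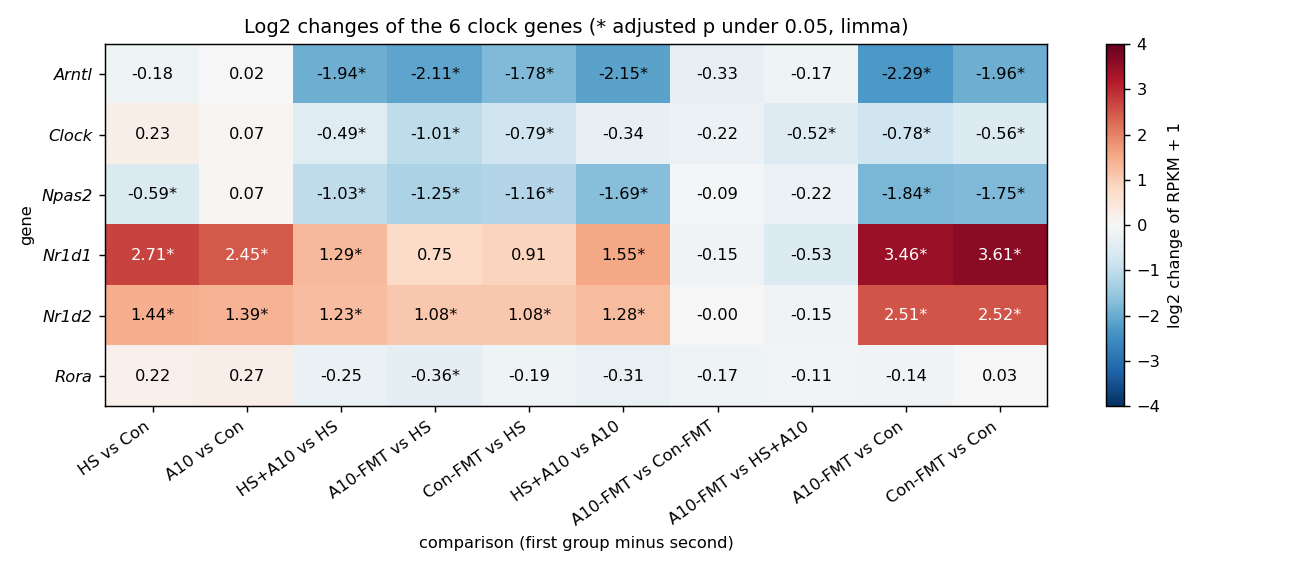
Log2 change of RPKM + 1 of the 6 genes (rows) in 10 comparisons (columns, first group minus second), with red for higher and blue for lower. An asterisk marks an adjusted p under 0.05 in limma over 10204 genes. Asterisks in the A10-FMT against HS column, which prompted the choice of genes, are not read as a test. The A10 column shows changes of 2.45 and 1.39 in the receptor genes beside 0.02 to 0.07 in the activators, and the A10-FMT against Con-FMT column holds no asterisk.

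Since RPKM is per length, the levels of Arntl and Nr1d1 could be set side by side in each library. The log2 ratio of Arntl to Nr1d1, with 1 RPKM added to each, averaged 1.91 ± 0.38 in Con, -0.98 ± 0.11 in HS and -0.52 ± 0.85 in A10 (SD, n = 3 each). It averaged -4.21 ± 0.60 in HS+A10, -3.84 ± 0.68 in A10-FMT and -3.66 ± 1.36 in Con-FMT. Con was the only group with more Arntl than Nr1d1 in all 3 libraries. The 2 genes did not fall on a single line, and HS and A10 had Arntl in or near the Con range with Nr1d1 between 10.0 and 30.7 RPKM. Con-FMT replicate 1, at 4.92 RPKM of Arntl and 24.7 RPKM of Nr1d1, lay between the high and the low groups.

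**Figure D3:**
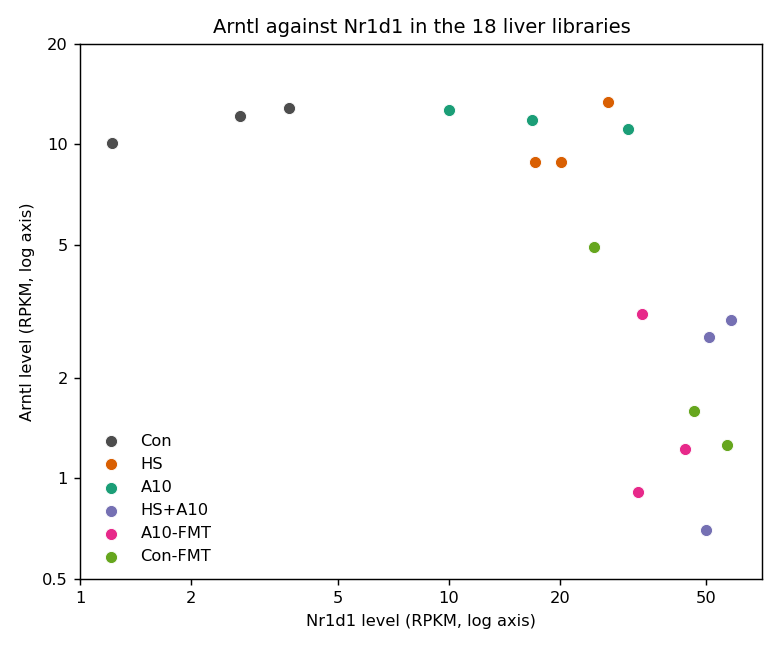
Level of Arntl (y axis, RPKM, log axis) against that of Nr1d1 (x axis, RPKM, log axis) in the 18 libraries, coloured by group. Con lies at the upper left, and HS+A10, A10-FMT and Con-FMT lie at the lower right. A10 lies inside the Con range of Arntl and HS just outside it, both at 10.0 to 30.7 RPKM of Nr1d1.

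The spread among libraries of a group differed between the genes. The SD within groups was 0.50 for Arntl and 0.49 for Nr1d1 on the log2 scale, larger than in 97.1% and 96.9% of all tested genes, whose median was 0.14. It was 0.23 for Nr1d2, 0.22 for Npas2, 0.15 for Clock and 0.13 for Rora. In the F test over the 6 groups, which includes the libraries that prompted the choice, all 6 genes were called by limma, as were 56.1% of all tested genes, with Nr1d2 at rank 4 of 10204 and Rora at rank 4846. Rora was not called there without the third Con and A10 libraries (adjusted p = 0.102).

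Genes outside the 6 whose profiles ran closest were found by the root mean square difference over the 18 libraries after centring each gene on its mean. For Arntl, which itself varied by 1.12 about its mean on the log2 scale, these included Tubb2a at 0.40 and Chka at 0.52. For Npas2 they included St5 at 0.28 and Asap2 at 0.31, and for Clock they were Caprin1, Net1 and Htatip2 at 0.12 to 0.13. For Nr1d2 they were Slc7a2 at 0.38, Tef at 0.39 and Abcg5 at 0.41, while Nr1d1 had no close neighbour, with Slc7a2 at 0.71, Trib3 at 0.79 and Cyp2c37 at 0.80 against its own 1.38. Among the 6 genes themselves Arntl and Npas2 lay 0.39 apart, Clock and Rora 0.29, and Nr1d1 and Nr1d2 0.52.

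The rest of the clock was read first through genes that BMAL1 drives from E-boxes, a list that also holds Cry1, which is controlled through a RORE as well. Of 10 tested, 6 were higher and 1 lower in HS+A10 against HS and 8 were higher in Con-FMT. Over all tested genes 7.32% and 23.6% were called. The medians of the list were 0.83 and 1.51, against -0.03 and -0.12 over all tested genes. In A10-FMT against HS, where clock genes had prompted the choice, the values of this and the following lists are a description and no call is read, and the median here was 1.20 against -0.16. Dbp, the albumin D-box binding protein, changed most, by 4.56 ± 0.35 in HS+A10 and 4.34 ± 0.35 in Con-FMT against HS (limma adjusted p = 1.26e-05 and 6.36e-06), beside 4.81 in A10-FMT. Ciart, a repressor of BMAL1, rose by 2.54 in HS+A10 and 3.21 in Con-FMT, beside 3.35 in A10-FMT, and Per3 rose by 1.92 and 1.59, beside 2.25. Per1 was at 0.39 in HS+A10, without a call, rose by 1.96 in Con-FMT and was at 1.02 in A10-FMT. Per2 was at 0.34, without a call, rose by 1.45 in Con-FMT and was at 1.04 in A10-FMT. Cry2 rose by 0.88 in HS+A10 and 0.59 in Con-FMT, beside 0.61 in A10-FMT.

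In HS and A10, Nr1d1 and Nr1d2 were at their middle level. Against Con, the medians of these E-box genes were 0.07 in HS and 0.13 in A10, beside 0.14 and 0.07 over all genes. In HS 0 of 10 were higher and 1 lower, beside 17.7% of all genes called. In A10 0 were called, beside 0.0686%, and limma gave 1418 of all 10204 genes an unadjusted p under 0.05. Dbp changed by 0.72 ± 0.35 in HS and 0.64 ± 0.35 in A10 (limma adjusted p = 0.163 and 0.439), with levels of 1.17 to 2.22 RPKM in HS, 0.36 to 3.41 RPKM in A10 and 0.58 to 0.68 RPKM in Con. Ciart changed by -0.04 and -0.12, Per1 by 0.66 and 0.27, Per2 by -0.17 and -0.65, Per3 by 0.06 and 0.14 and Cry2 by 0.11 and 0.15, all without a call. The call in HS was the lower Cry1, so that Nr1d1 and Nr1d2 were higher in both groups while no other gene of this list was called higher.

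Genes that REV-ERB and ROR proteins control through ROREs include Cry1 and Nfil3 outside the 6. Cry1, a repressor of the activator pair, fell by 0.77 ± 0.19 in HS against Con (limma adjusted p = 0.015) and by 1.17 ± 0.19 in HS+A10 against HS (limma adjusted p = 0.0041), while Con-FMT was at -0.46 ± 0.19 (adjusted p = 0.0953) and A10-FMT at -0.70. The call in HS was lost without Con replicate 2 or HS replicate 2 (0.053 and 0.0543). Nfil3, a repressor at D-boxes, fell by 1.47 ± 0.28 in HS+A10 against HS, a call lost without HS+A10 replicate 1 (adjusted p = 0.0533), and was at -1.19 in A10-FMT and, without a call, at 0.29 ± 0.28 in Con-FMT. The recipients differed in this gene, at 9.13 ± 4.39 RPKM in A10-FMT and 26.04 ± 6.76 RPKM in Con-FMT, a log2 difference of -1.47 ± 0.28 (limma adjusted p = 0.00252). Against Con, A10 had -0.59 for Cry1 and 0.01 for Nfil3, with no call.

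**Figure D4:**
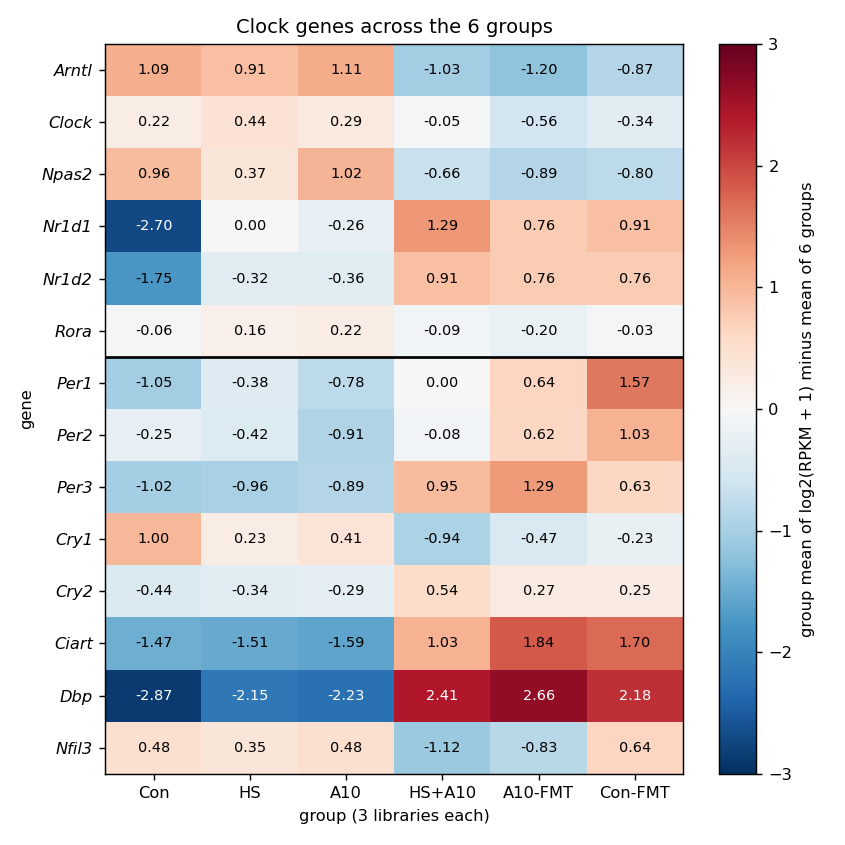
Group means of log2(RPKM + 1), each gene centred on the mean of the 6 groups, for the 6 genes (above the line) and 8 other clock genes (below). Columns are the groups of 3 libraries, red is above and blue below the gene's mean. Dbp and Ciart are at -2.87 to -1.47 in Con, HS and A10 and at 1.03 to 2.66 in the other groups, while Nr1d1 and Nr1d2 already leave their lowest level in HS and A10.

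Output genes of the liver clock also differed in these groups. Of 10 tested, 5 were higher and 1 lower in HS+A10 against HS and 5 higher and 2 lower in Con-FMT, beside 7.32% and 23.6% of all genes called and at medians of 0.72 and 0.74 against -0.03 and -0.12 over all genes. In HS against Con 2 were higher and 1 lower beside 17.7%, at a median of 0.08 against 0.14, and in A10 0 were called beside 0.0686%. Usp2, a deubiquitinase gene, rose by 2.11 in HS+A10 and 2.45 in Con-FMT, beside 2.58 in A10-FMT, and Gys2, the glycogen synthase of liver, by 1.21 and 0.77, beside 1.16. Wee1, a cell cycle kinase gene, rose by 1.53 in HS+A10, beside 1.62 in A10-FMT. Between the recipients Wee1 was higher by 0.92 and Nampt and Coq10b lower by -0.66 and -0.77 in A10-FMT. Each of these calls was lost without Con-FMT replicate 2 (adjusted p = 0.057 to 0.0867), and also without A10-FMT replicate 1 for Wee1, A10-FMT replicate 3 for Nampt and A10-FMT replicate 2 or Con-FMT replicate 1 for Coq10b (0.0523 to 0.0975). Hlf, an E-box gene, also differed between the recipients, with A10-FMT higher by 0.81 ± 0.14 (limma adjusted p = 0.00151).

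Metabolic genes known as targets of REV-ERB or ROR proteins in liver differed in some of these comparisons. Of 13 tested, 4 were higher and 0 lower in HS against Con, beside 17.7% of all genes called. The median of the list was 0.56 against 0.14 over all genes. The largest were Cyp4a14 by 5.41, Fgf21 by 1.61 and Cidec by 1.34. The call of Fgf21 was lost under 11 of 27 alternatives, any single Con library left out among them, and its change was 0.94 without HS replicate 1 (adjusted p = 0.129). In A10-FMT against HS, Lpin1 was at 1.39, Cyp4a14 at -3.17 and Insig2 at -1.60. In Con-FMT against HS, Lpin1 was higher by 3.75 and 4 were lower, beside 23.6% of all genes called. The median there was -0.65 against -0.12 over all genes. Among the lower were Cyp4a14 by -3.03, Insig2 by -1.03 and Plin2 by -1.02. The call of Cyp4a14 was lost under 7 of 28 alternatives, including without HS replicate 1, HS replicate 2, Con-FMT replicate 2 or Con-FMT replicate 3. In HS+A10 against HS, Cidec (1.40) and Fabp1 (0.89) were called higher, beside 7.32% of all genes called. The median there was -0.10 against -0.03 over all genes. The call of Fabp1 was lost under 17 of 27 alternatives. Cidec was at 0.88 without HS replicate 3 and lost its call without HS+A10 replicate 1 (adjusted p = 0.0805). Lpin1, a phosphatidic acid phosphatase gene, was the 1 gene of this list that differed between the recipients, by -2.36 ± 0.45 in A10-FMT (limma adjusted p = 0.00234).

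Kinases and ubiquitin ligases that act on clock proteins and the co-factors of the 6 genes were read last. Among 14 kinases and ligases, 4 were higher in HS against Con (Btrc by 0.44, Fbxw11 by 0.38 and Csnk2a1 by 0.28 as the largest), 6 were lower in Con-FMT against HS and 0 were called in HS+A10 against HS. The medians of the list, 0.13, -0.23 and -0.03, stood beside 0.14, -0.12 and -0.03 over all genes, of which 17.7%, 23.6% and 7.32% were called. Under median scaling the calls of Btrc and Csnk2a1 were lost (adjusted p = 0.0978 and 0.39), and each was also lost without Con replicate 1 (0.0888 and 0.0994), while that of Fbxw11 was kept under every alternative run. Of 15 co-repressors and co-activators tested, 0 were called in HS against Con, beside 17.7% of all genes. In Con-FMT against HS 1 was lower, beside 23.6% of all genes called. It was Ncor1, by -0.29, a call lost under 19 of 28 alternatives. Of the relatives of the 6 genes 4 of 6 passed the level filter, and Hif1a, a hypoxia-responsive factor gene, was called at -0.24 in Con-FMT against HS, a call lost under 13 of 28 alternatives.

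Other cell types moved with some of the groups. Over 5 markers, sinusoidal endothelium summed to 56.0 to 68.9 RPKM in HS+A10 and 31.1 to 49.6 RPKM in the other 15 libraries. Over 6 markers, stellate cells summed to 127 to 143 RPKM in HS+A10 and 126 to 197 RPKM in HS, against 80.7 to 124 RPKM elsewhere. Kupffer cell markers, also 6, summed to 41.2 to 52.5 RPKM in A10-FMT against 47.3 to 85.9 RPKM in Con-FMT and 56.0 to 102 RPKM in Con, HS, A10 and HS+A10. Adipocyte markers, 4 in all, summed to 1.41 to 2.61 RPKM in HS+A10 and at most 0.32 RPKM in the other libraries except Con-FMT replicate 3, with Lep and Plin1 each at 0 in 16 libraries. Cholangiocyte markers summed to 17.03 to 44.4 RPKM and lymphocyte markers to 0.52 to 4.66 RPKM over all libraries. The part of these cells in the levels of the 6 genes was not tested, and in whole liver fewer cells of a type and less RNA per cell cannot be told apart.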

How the data were processed

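Liver mRNA of 18 libraries was sequenced, 3 for each of 6 groups taken from the GEO labels. The authors deposited 1 table of RPKM per gene, rounded to 2 decimals. The submitters' processing notes list mm10 and Bowtie 0.12.2, whereas the methods of the study name SOAPaligner for mapping. Read numbers per library are unknown, so no counting interval could be given. No other normalization was applied to the deposited RPKM. Values were tested as log2(RPKM + 1) with limma 3.58.1 (R 4.3.3), 1 mean per group over all 18 libraries and a variance trend, keeping genes whose mean reached 1 RPKM. Fold changes on this scale understate those of low genes. Benjamini-Hochberg adjustment was made over all 10204 genes, separately in each comparison, and called under 0.05. An exact permutation test of 3 against 3 libraries cannot go below 0.1 and was not used for calls.

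The members and the gene lists were chosen with earlier results of these data known. Named genes were the 6 members, up to 3 called genes of each list in each direction by size of change, a set of core clock genes whatever their values, and for each member whose group means spanned over 1 on the log2 scale the 3 genes with the smallest root mean square difference. Dbp in the interaction and the called genes of A10 against Con were named after their values were seen. Some genes that these rules name are not reported here. The alternatives tried were 0.1 as the pseudocount, testing without a filter or above 5 RPKM, quantile and median scaling, a replicate block, fits on fewer groups and leaving out each library. The omission of the third Con and A10 libraries together was chosen after seeing the data. The fit was tested on simulated data. Gene positions are from GENCODE M21 (GRCm38) and promoters from RefSeq (GRCm38.p6), read with Python 3.11.15 and pandas 2.3.3, and plots were drawn with matplotlib 3.10.9.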

Additional observations from a re-analysis of the deposited data

Results flagged for a closer look

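Dbp was the 1 gene of 10204 at which the effect of AOS under diet and STZ differed from its effect on the regular diet by the interaction term, with a difference of 3.92 ± 0.50 on the log2 scale (SE, limma adjusted p = 0.00978). All 3 HS+A10 libraries, at 47.3 to 97.5 RPKM, stood above the 9 libraries of Con, HS and A10, at 0.36 to 3.41 RPKM. Dbp was also high in the recipients of microbiota, at means of 77.9 RPKM in A10-FMT and 53.4 RPKM in Con-FMT. The call was lost with a pseudocount of 0.1 (adjusted p = 0.0628), without HS replicate 3 (0.0505) and without the third Con and A10 libraries together (0.157), with a difference of 3.46 to 4.31 over the alternatives run.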

How the results depend on the processing

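The 34 called differences of the 6 genes gave 927 values under the alternatives, of which 876 kept direction and call, 51 kept the direction only and 0 reversed. Of 869 values of the 32 uncalled differences, 15 came to be called and 20 reversed. For 178 called differences of other clock genes, 4374 of 4885 values kept the call and 0 reversed. The called differences of both kinds include those of A10-FMT against HS, which prompted the choice of genes, so these counts are a description. The cause was not tested for any change below, other than that a mean of at least 5 RPKM leaves 4 of the 6 genes in the test. With that filter 3 genes were called in HS+A10 against HS, 3 in A10-FMT against HS, 2 in Con-FMT against HS, 3 in A10-FMT against Con, 3 in Con-FMT against Con and 0 in A10-FMT against HS+A10. HS+A10 against HS had 3 calls without a filter and 3 in a fit on the groups compared. A10-FMT against HS+A10 had 0 under quantile normalization, median scaling and the fit on the groups compared, and A10 against Con had 1 in that fit. Leaving out single libraries gave 0 to 2 calls in A10 against Con, 0 to 1 in A10-FMT against HS+A10 and 3 to 5 in HS+A10 against HS. Small uncalled differences reversed under quantile normalization and median scaling, namely Arntl in A10 against Con (-0.062 and -0.050), Nr1d2 between the recipients (0.10 and 0.071), Rora in Con-FMT against Con (-0.011 and -0.033) and Rora in A10-FMT against HS+A10 (0.019 and 0.018). With single libraries left out the ranges were -0.070 to 0.092 for Arntl in A10 against Con, -0.064 to 0.12 for Rora in Con-FMT against Con, -0.55 to 0.058 for Arntl in A10-FMT against HS+A10 and, between the recipients, -0.19 to 0.14 for Nr1d2, -0.66 to 0.10 for Arntl, -0.24 to 0.12 for Npas2 and -0.49 to 0.092 for Nr1d1. Of the 67 other clock genes, 13 were called in HS against Con, but 8 without a filter, with median scaling or in 12 libraries and 6 with quantile normalization or the groups compared. Between the recipients 8 became 13 with quantile normalization or median scaling, and the interaction 1 became 2 with a pseudocount of 0.1. The fit on the groups compared called 16 in A10-FMT against HS in place of 30, 15 in Con-FMT against HS in place of 28, 4 in HS+A10 against HS in place of 16, 1 in A10 against Con in place of 0 and 5 in A10-FMT against HS+A10 in place of 8. Single libraries left out gave 5 to 14 in HS against Con, 0 to 1 in A10 against Con, 19 to 32 in A10-FMT against HS, 5 to 11 in A10-FMT against HS+A10 and 0 to 6 in the interaction. Median scaling moved the calls over all genes, higher and lower, from 213 and 2145 to 639 and 516 in A10-FMT against HS, from 470 and 1943 to 858 and 1240 in Con-FMT against HS, from 301 and 446 to 579 and 356 in HS+A10 against HS from 686 and 1228 to 1302 and 958 between the recipients, from 73 and 1120 to 177 and 374 in A10-FMT against HS+A10, from 1388 and 743 to 1243 and 1151 in HS+A10 against A10 and from 1465 and 1172 to 1258 and 1725 in Con-FMT against Con. The replicate block changed 1 call of the 6 genes, that of Nr1d1 in HS+A10 against HS (1.29, adjusted p = 0.0573), and of 45 correlations between samples of the same number, from -0.126 to 0.262, 12 were over 0.1, against 11 of 90 between different numbers. Since not every same-number correlation was over 0.1, the main fit took no replicate block. This does not show that samples of the same number are unrelated, and the share over 0.1 was larger among them. Depth limits the lowest values, above all Npas2 in the 3 low groups.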
